A study of Mus musculus with 13 samples.

Results

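Astrocytes and microglia make, load and take up the lipid particles that carry cholesterol and phospholipid between cells of the nervous system, and 9 genes of that trade were followed here through the spinal cord of young mice with and without the cytokine interleukin-33. The genes were taken by symbol from the table of gene expression of all 13 libraries, and all 9 were found among its 39171 genes. They are the apolipoproteins Apoe, Clu, Apod and Apoa2, the lipid exporters Abca1 and Abcg1, the lipoprotein lipase Lpl and the uptake receptors Lrp1 and Vldlr. Values are FPKM, fragments scaled by transcript length and library size, which compare levels between genes per unit of length.

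Flow sorting gave the cells, taken from spinal cords of C57BL/6 mice in which Il33 was either knocked out (KO) or intact in littermate controls (WT). Astrocytes were sorted by green fluorescence from an Aldh1l1-GFP reporter, which both genotypes carried, and microglia by surface CD11b, an integrin that other myeloid cells carry too. There were 3 WT and 3 KO microglia libraries, all from postnatal day 12. There were 3 WT and 4 KO astrocyte libraries, from day 12 except WT replicate 3 and KO replicate 2, which were from day 9. The design text calls the samples biological replicates, and the sex of the mice is not in the labels.

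In the brain and spinal cord, lipid travels in particles that resemble plasma high density lipoprotein and are assembled locally. Abca1 and Abcg1 are membrane transporters that move cholesterol and phospholipid out of the cell onto apolipoproteins, of which Apoe is the main one made by astrocytes. Lpl splits triglyceride in lipoproteins, and Lrp1 and Vldlr are members of the low density lipoprotein receptor family that bind particles carrying Apoe. Abca1, Abcg1 and Apoe are textbook targets of the liver X receptors, nuclear receptors for oxidised cholesterol. Microglia clear lipid-rich debris, including myelin, and the early postnatal cord is a time of myelination.

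Il33, the targeted gene, was at 96.3, 113 and 108 FPKM in the WT astrocytes and at 2.28, 2.05, 0.424 and 0.733 FPKM in the KO astrocytes (log2 difference -5.55, limma with Benjamini-Hochberg adjustment, adjusted p = 0.0129). In microglia of either genotype it did not exceed 1.26 FPKM. A list of 12 astrocyte markers summed to between 7275 and 12432 FPKM in astrocyte libraries and between 76.1 and 123 FPKM in microglia. One of them, the glutamate transporter Slc1a2, was listed at 0 in WT astrocyte replicate 1 and KO astrocyte replicate 3 and was at 1631 to 3996 FPKM in the other 5 astrocyte libraries. An exact 0 in this table thus also occurs for an abundant gene of the cell type and cannot be read as a low level. A list of 12 microglia markers summed to between 9910 and 10981 FPKM in microglia and between 9.20 and 65.7 FPKM in astrocytes. Myelin markers were plentiful in both sorts, with sums of 1083 to 2678 FPKM in microglia and 4629 to 8260 FPKM in astrocytes. In such sorted bulk samples, fewer cells of a type and less RNA per cell cannot be told apart. The absolute depth is unknown. The steps of the lowest values put the astrocyte libraries at an estimated 33.8 to 62.7% of the depth of the deepest microglia library. By the same estimate the other microglia libraries were at 74.5 to 85.4% of it. The scaling of FPKM between libraries is not stated, and a difference in it would move these estimates too. The estimate is weak at the low end of both ranges: its densest bin held 35 genes against 29 in the next for WT astrocyte replicate 2, and 46 against 45 for WT microglia replicate 3.

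Promoter sequences of 3 of the genes are shown, which stand for 3 of the behaviours described below. Apoe was abundant in both cell types and far higher in astrocytes. Abca1 was at a like level in both cell types of WT, and in KO it was narrowly called higher in microglia. Apoa2 was the gene that was listed at 0 in WT astrocytes and above 0 in KO astrocytes. No window was matched for Abcg1 or Lpl, which were far higher in microglia, so that behaviour is not shown. Each is the RefSeq window from 250 bases before to 50 bases after the transcript start, on GRCm38.p6. It is written 5′ to 3′ on the strand of the gene. The letters TATAAA, the motif of a TATA box, are in capitals wherever they occur on that strand, and their function was not tested.
Apoe, chr7:19699139-19699438, minus strand: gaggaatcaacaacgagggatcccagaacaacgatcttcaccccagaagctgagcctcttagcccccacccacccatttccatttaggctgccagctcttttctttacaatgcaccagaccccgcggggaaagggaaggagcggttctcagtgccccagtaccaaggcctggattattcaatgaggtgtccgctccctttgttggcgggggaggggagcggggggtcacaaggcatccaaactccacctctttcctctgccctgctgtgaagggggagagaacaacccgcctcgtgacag
Abca1, chr4:53159846-53160145, minus strand: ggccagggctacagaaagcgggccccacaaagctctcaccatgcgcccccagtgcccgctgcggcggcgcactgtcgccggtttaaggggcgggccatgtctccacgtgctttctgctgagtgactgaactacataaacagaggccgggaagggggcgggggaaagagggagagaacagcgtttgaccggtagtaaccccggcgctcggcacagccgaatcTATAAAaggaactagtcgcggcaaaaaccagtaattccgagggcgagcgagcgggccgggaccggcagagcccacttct
Apoa2, chr1:171224804-171225103, plus strand: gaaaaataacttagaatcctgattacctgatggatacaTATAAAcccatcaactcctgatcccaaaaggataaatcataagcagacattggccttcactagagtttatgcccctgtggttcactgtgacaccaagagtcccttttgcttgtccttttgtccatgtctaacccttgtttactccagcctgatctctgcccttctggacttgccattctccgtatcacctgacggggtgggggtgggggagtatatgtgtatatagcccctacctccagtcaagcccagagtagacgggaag

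RefSeq windows were matched for 6 of the 9 genes (Apoe, Apod, Apoa2, Abca1, Lrp1 and Vldlr). In Abca1 the TATAAA motif began 29 bases before the start, in Apoa2 it began 212 bases before, and the Apoe window shown did not hold it on either strand. Of the 2 further RefSeq windows of Apoe, the one at chr7:19698572-19698871 held it, 96 bases before its start and also on the reverse strand. Of the 32851 windows of the same length in the table, 13.6% held that motif on at least 1 strand. The Abca1 window held 26 CpG dinucleotides, the Apoe window 10 and the Apoa2 window 3, against a median of 7 over all windows. A direct repeat of the liver X receptor type was searched on both strands. The form sought was 2 exact copies of AGGTCA with 4 bases of any kind between them. It was in none of the windows of the 6 genes and in 0.0152% of all windows. A sterol response element of the form TCACNCCAC was likewise in none of the windows of the 6 genes and in 1.24% of all windows. Repeats or elements with other letters were not searched, so the search cannot say that a window lacks a site of either kind.

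In both genotypes the abundant apolipoproteins Apoe, Clu and Apod and the receptor Vldlr were higher in astrocytes, and the exporter Abcg1 and the lipase Lpl were higher in microglia. Between WT microglia and WT astrocytes 7 of the 9 genes differed, against 53.6% of all 16258 genes tested (limma, two-sided, on log2(FPKM + 1), Benjamini-Hochberg adjusted p under 0.05, age as a covariate). Apoe, Clu, Apod and Vldlr were lower in microglia (24.5% of all genes were), and Lpl, Abcg1 and Apoa2 were higher (29.1%). The call of Apoa2 rests on its 3 listed zeros in WT astrocytes, which may not be low levels. The same comparison among KO libraries called 7 of 9, against 56.9% of all genes, with Abca1 in place of Apoa2 among the 3 that were higher in microglia (31.9% of all genes) and the same 4 lower (25.1%). The libraries of the cell types did not overlap for 7 of 9 genes in WT, against 55.8% of all genes, and for 7 of 9 in KO, against 62.3%. The 2 comparisons have no library in common, and 6 genes passed in both with the same sign, which is 85.7% of each list. Over all genes the share was 87.1% of the WT calls and 82.1% of the KO calls. FPKM summed to between 1683014 and 3837234 in astrocyte libraries and to between 1188572 and 1430186 in microglia libraries. A single listed gene, the same in every library, held from 11.6% (WT microglia replicate 3) to 38.9% (WT astrocyte replicate 1) of the sum. Quantile normalization, which equalises the libraries' distributions, moved the median difference of all genes from 0.21 to -0.06 in WT and from 0.24 to -0.08 in KO on the log2 scale. The split of calls higher and lower in microglia moved with it, from 4737 and 3980 to 3764 and 4930 genes in WT, and from 5181 and 4073 to 4083 and 5160 in KO.

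**Figure D1:**
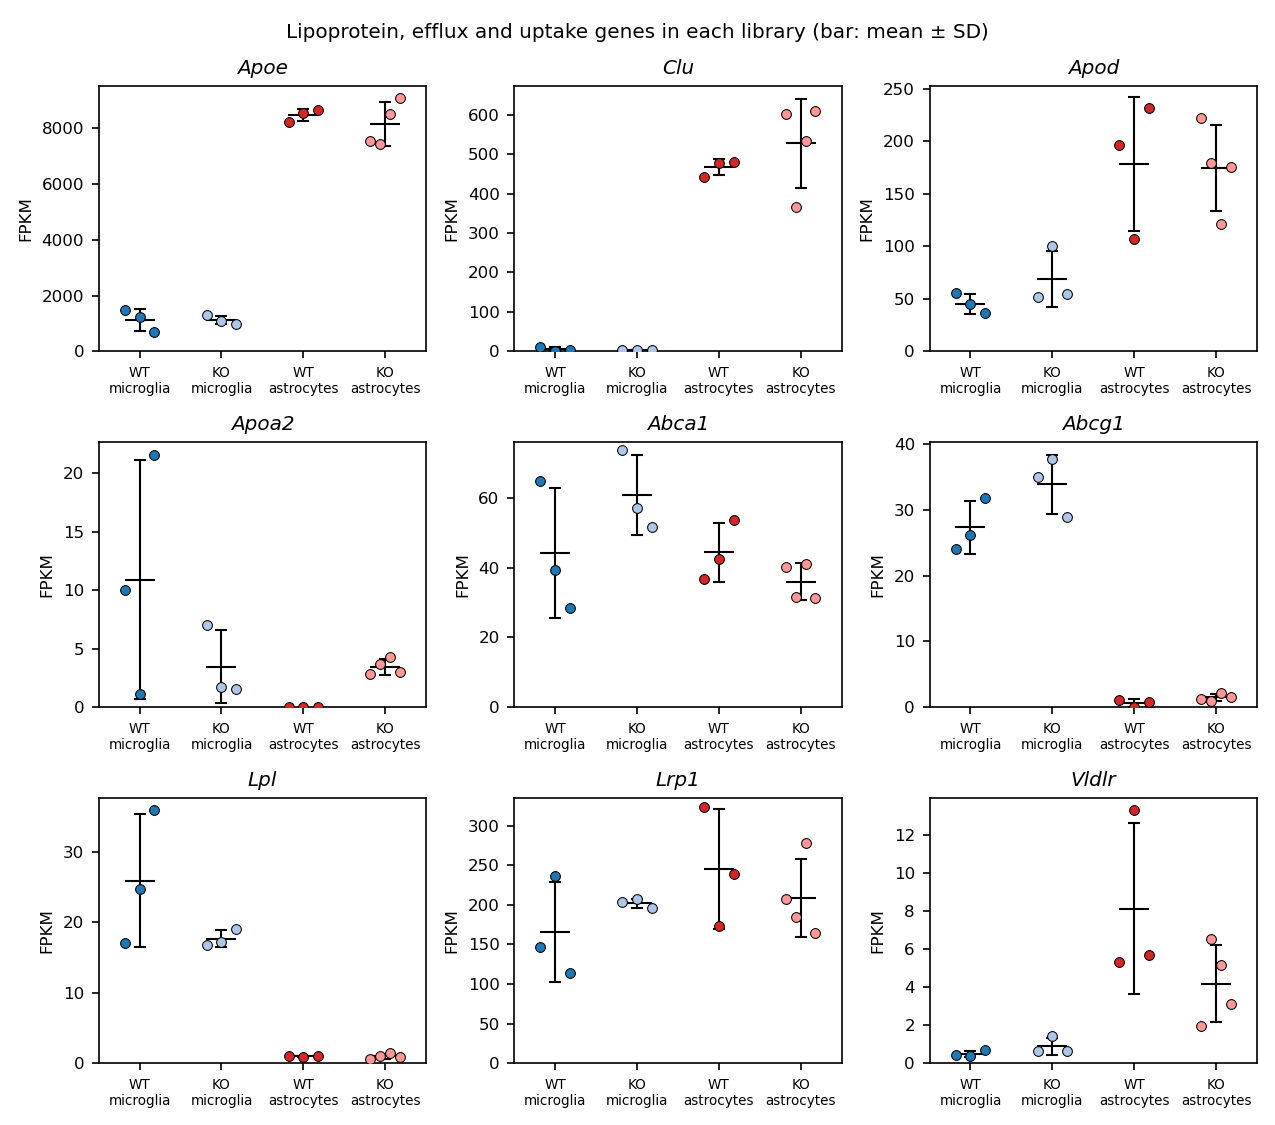
FPKM of the 9 genes (linear vertical axes from 0) in each of the 13 libraries, with 1 point a library and bars for the mean and SD of the groups, except where all libraries are listed at 0. Apoe lies between 7455 and 9102 FPKM in astrocytes and between 709 and 1489.9 FPKM in microglia, Abcg1 and Lpl are near the floor in astrocytes, and Apoa2 is at 0 in the 3 WT astrocyte libraries.

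Apoe encodes apolipoprotein E, on chromosome 7 (19696109 to 19699188, minus strand, GRCm38). It was at 8241, 8565 and 8649 FPKM in WT astrocytes and at 7557, 7455, 8528 and 9102 FPKM in KO astrocytes. In microglia it was at 1489.9, 1214 and 709 FPKM in WT and at 1302, 1088 and 998 FPKM in KO. Every astrocyte library was thus above every microglia library. The WT means differed 7.46-fold, at 8485 ± 215 (SD, n = 3) in astrocytes and 1137 ± 396 (SD, n = 3) in microglia. That fold depends on the scaling of FPKM between libraries, which is not stated. As a share of the summed FPKM of protein-coding genes, Apoe was 0.932 to 1.62% in WT astrocytes and 0.163 to 0.347% in WT microglia, a smaller gap. The log2 difference, microglia minus astrocytes, was -2.99 (SE 0.26) in WT and -2.87 (SE 0.24) in KO, with adjusted p = 3.98e-06 and 2.38e-06 (limma, Benjamini-Hochberg). Apoe was still a leading transcript of microglia. Ranked by FPKM among protein-coding genes, it stood between the 7th and the 12th place in astrocyte libraries and between the 27th and the 55th in microglia libraries.

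Clu encodes clusterin, also called apolipoprotein J, a secreted chaperone, on chromosome 14 (65968483 to 65981547, plus strand). It was at 443, 479 and 479 FPKM in WT astrocytes and at 603, 366, 532 and 609 FPKM in KO astrocytes. In microglia it was at 10.9, 1.94 and 2.13 FPKM in WT and at 4.20, 2.53 and 3.42 FPKM in KO. The ranges lay far apart, and WT microglia replicate 1 was the highest of the microglia libraries. Clu had the widest gap of the 9 genes, with log2 differences of -6.72 (SE 0.48) in WT and -6.98 (SE 0.44) in KO and adjusted p = 8.83e-07 and 2.94e-07 (limma, Benjamini-Hochberg).

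The microglial mean of Clu was 1.07% of the astrocyte mean in WT and 0.642% in KO. The 12 astrocyte markers had a median of 0.758% (0.226 to 6.03%) in WT and of 0.772% (0.442 to 5.32%) in KO by the same measure, so that Clu in microglia lay within the range of the markers. Apoe in microglia, at 13.4% of the astrocyte mean in WT and 13.8% in KO, lay above that range in both genotypes.

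Apod encodes apolipoprotein D, a lipocalin that oligodendrocytes make as well as astrocytes, on chromosome 16 (31296192 to 31314808, minus strand). It was at 196, 107 and 231 FPKM in WT astrocytes and at 222, 179.5, 121 and 176 FPKM in KO astrocytes. In microglia it was at 55.3, 44.6 and 36.3 FPKM in WT and at 51.9, 100.04 and 54.5 FPKM in KO. All astrocyte libraries were above all microglia libraries, with KO microglia replicate 2 the closest. The log2 difference was -1.78 (SE 0.36, adjusted p = 0.0017) in WT and -1.27 (SE 0.33, adjusted p = 0.00722) in KO (limma, Benjamini-Hochberg). The sum of the 12 myelin markers was also higher in every astrocyte library. As a share of that sum Apod was 2.2 to 3.74% in the microglia libraries and 1.95 to 4.99% in the astrocyte libraries, ranges that overlap, and the part of myelinating cells in the difference was not tested.

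Apoa2 encodes apolipoprotein A-II, a protein of plasma high density lipoprotein made chiefly in the liver, from a short gene on chromosome 1 (171225054 to 171226379, plus strand). It was at 9.98, 1.17 and 21.6 FPKM in WT microglia and at 7.06, 1.74 and 1.57 FPKM in KO microglia. It was listed at 0 in all 3 WT astrocyte libraries and was at 2.85, 3.67, 4.32 and 3.03 FPKM in KO astrocytes. Since an exact 0 was also listed for Slc1a2 in WT astrocyte replicate 1, these zeros may be failed estimates, and every value of Apoa2 set against WT astrocytes carries that limit. The microglia libraries spanned an 18.4-fold range, the widest of the 9 genes in that cell type. The comparison of cell types was called in WT (log2 difference 3.04, SE 0.77, adjusted p = 0.00669) and not in KO (-0.19, 95% interval -1.76 to 1.38, adjusted p = 0.843; limma, Benjamini-Hochberg).

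The exporters differed from each other. Abca1, on chromosome 4 (53030787 to 53159895, minus strand), passes lipid to apolipoproteins that carry little of it. It was at 64.9, 39.4 and 28.5 FPKM in WT microglia and at 73.6, 57.1 and 51.5 FPKM in KO microglia. In astrocytes it was at 36.9, 42.5 and 53.7 FPKM in WT and at 40.2, 31.5, 40.9 and 31.4 FPKM in KO. The WT cell types overlapped, with a log2 difference of -0.04 (95% interval -0.72 to 0.64, adjusted p = 0.932, limma). All 3 KO microglia libraries were above all 4 KO astrocyte libraries, with means of 60.7 ± 11.5 (SD, n = 3) and 36.0 ± 5.29 FPKM (SD, n = 4). That difference passed the test narrowly, at 0.75 on the log2 scale (SE 0.28, adjusted p = 0.0414, limma). It no longer passed without KO microglia replicate 1, 2 or 3 or without KO astrocyte replicate 1, 2 or 4 (adjusted p = 0.0489 to 0.14 over the leave-outs), nor under quantile normalization (adjusted p = 0.078) or without the filter on low values (adjusted p = 0.062).

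Abcg1, on chromosome 17 (31057675 to 31117988, plus strand), passes lipid to particles that already carry it. It was at 24.0, 26.1 and 31.8 FPKM in WT microglia and at 35.0, 37.7 and 28.9 FPKM in KO microglia. In astrocytes it was at 1.16, 0.0153 and 0.772 FPKM in WT and at 1.28, 0.937, 2.21 and 1.64 FPKM in KO. The cell types were far apart in both genotypes, with WT astrocyte replicate 2 the lowest library. The log2 difference was 4.12 (SE 0.32, adjusted p = 1.66e-06) in WT and 3.78 (SE 0.29, adjusted p = 1.44e-06) in KO (limma, Benjamini-Hochberg).

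Lpl encodes the lipase, on chromosome 8 (68880491 to 68907448, plus strand). It was at 17.1, 24.7 and 35.9 FPKM in WT microglia and at 16.8, 17.2 and 19.1 FPKM in KO microglia. In astrocytes it was at 1.03, 0.898 and 1.02 FPKM in WT and at 0.636, 1.04, 1.46 and 0.931 FPKM in KO. The 6 microglia libraries were all above the 7 astrocyte libraries, and the log2 difference was 3.71 (SE 0.28, adjusted p = 1.42e-06) in WT and 3.24 (SE 0.26, adjusted p = 1.82e-06) in KO (limma, Benjamini-Hochberg).

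The astrocyte mean was 2.37% of the microglial mean for Abcg1 and 3.8% for Lpl in WT, and 4.48% and 5.74% in KO. The 12 microglia markers had a median of 0.289% (0.1 to 1.22%) in WT astrocytes and of 0.347% (0.222 to 0.705%) in KO astrocytes by the same measure. Both genes thus lay above the range of the markers in both genotypes.

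The receptors were also unlike each other. Lrp1, a large receptor for lipoproteins and many other ligands, lies on chromosome 10 (127538161 to 127621148, minus strand). It was at 147, 236 and 113 FPKM in WT microglia and at 204, 207 and 196 FPKM in KO microglia. In astrocytes it was at 324, 173 and 239 FPKM in WT and at 207, 185, 278 and 164 FPKM in KO. Cell types overlapped in both genotypes. The log2 difference was -0.62 in WT (95% interval -1.34 to 0.10, adjusted p = 0.134) and -0.04 in KO (95% interval -0.70 to 0.62, adjusted p = 0.929; limma, Benjamini-Hochberg). In WT the gene passed, as lower in microglia, without WT microglia replicate 2 (-0.91, adjusted p = 0.0335), without WT astrocyte replicate 2 (-0.96, adjusted p = 0.0424) and under quantile normalization (-0.93, adjusted p = 0.0417).

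Vldlr, the very low density lipoprotein receptor, which also binds reelin, lies on chromosome 19 (27216484 to 27254231, plus strand). It was at 0.413, 0.370 and 0.683 FPKM in WT microglia and at 0.624, 1.41 and 0.632 FPKM in KO microglia. In astrocytes it was at 5.34, 13.3 and 5.71 FPKM in WT and at 1.97, 6.51, 5.18 and 3.10 FPKM in KO. No microglia library reached the lowest astrocyte library, and KO microglia replicate 2 and KO astrocyte replicate 1 came nearest to each other. The log2 difference was -2.45 (SE 0.44, adjusted p = 0.000786) in WT and -1.34 (SE 0.40, adjusted p = 0.0154) in KO (limma, Benjamini-Hochberg). In KO it was at adjusted p = 0.0508 without KO microglia replicate 1 and at 0.052 without replicate 3. The microglial mean was 6.02% of the astrocyte mean in WT and 21.2% in KO.

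**Figure D2:**
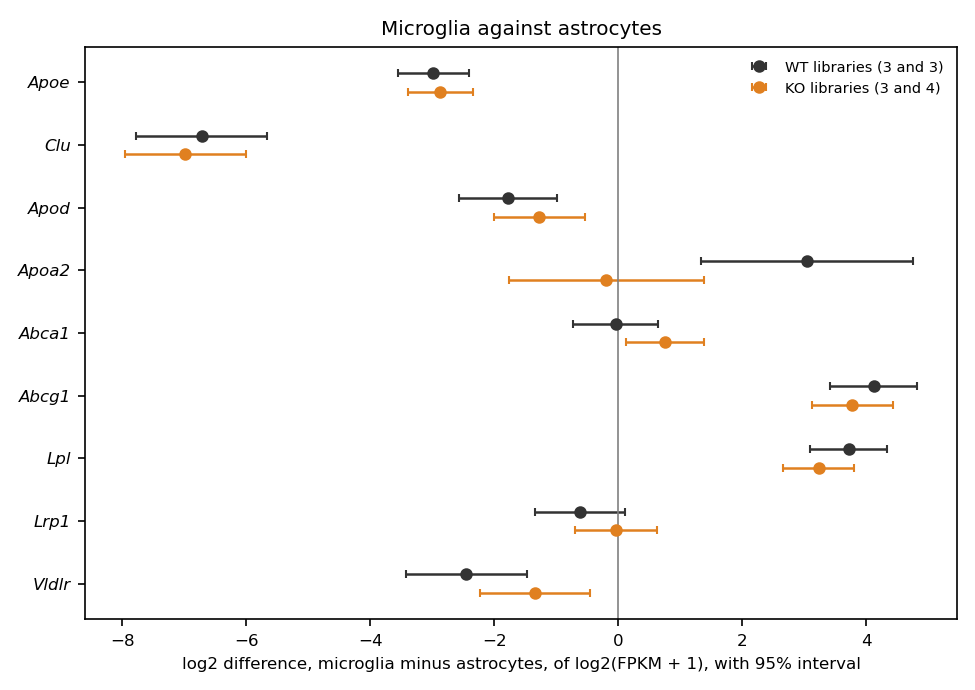
Difference between microglia and astrocytes for the 9 genes, in log2(FPKM + 1) (horizontal axis; left, higher in astrocytes), with the 95% interval of each gene, not adjusted for the number of genes, in WT (black) and KO (orange) libraries. Clu lies farthest to the left at -6.72 and -6.98, and Abcg1 farthest to the right at 4.12 and 3.78.

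Within each group of cells the order of the genes by level was led by Apoe, with Lrp1 next in microglia and Clu next in astrocytes. The 4 groups did not differ beyond their spread at most steps of a gene's order: for Lrp1 and Abca1 every pair of neighbouring groups overlapped, and for Apoe, Clu, Apod, Abcg1, Lpl and Vldlr the only step without overlap lay between the cell types. For Apoa2 it lay between WT astrocytes, listed at 0, and the other 3 groups. In microglia the highest library was 2.10-fold above the lowest for Apoe, 1.57-fold for Abcg1 and 5.60-fold for Clu. In astrocytes Apoe varied 1.22-fold and Vldlr 6.77-fold, and Abcg1 varied 145-fold through its low value in WT replicate 2.

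No change with the loss of Il33 was detected for these genes in microglia, where 0 of 9 passed (limma, 3 KO against 3 WT, Benjamini-Hochberg), against 0.0818% of 15891 genes tested. At an unadjusted p under 0.05 the count was also 0, and the KO and WT ranges overlapped for all 9 genes, where 15.9% of genes tested did not overlap. Apoe was at 1129 ± 156 FPKM in KO (SD, n = 3) and at 1137 ± 396 FPKM in WT, a log2 difference of 0.05 with a 95% interval of -0.70 to 0.80. The mean of Lpl was 17.7 ± 1.24 FPKM in KO and 25.9 ± 9.43 FPKM in WT (log2 difference -0.47, 95% interval -1.16 to 0.22). The mean of Abca1 was 60.7 ± 11.5 FPKM in KO and 44.3 ± 18.7 FPKM in WT (log2 difference 0.51, 95% interval -0.29 to 1.32). The intervals of Lpl and Abca1 reach past 1 log2 unit, so that a change of that size lay within what 3 libraries against 3 allow. Single WT libraries set the size of these differences. Abca1 was at 0.24 without WT replicate 3 and at 0.82 without WT replicate 1, and Lpl at -0.21 and -0.72. Lrp1, at 0.35 with all libraries, was at 0.12 without WT replicate 3 and at 0.64 without WT replicate 2. Apoa2, at -1.08, was at -0.35 and -2.03 in those 2 fits. None of these values passed. The lowest adjusted p of the 9 was 0.67, for Apod. The median difference of the 9 genes was 0.30, against 0.02 over all genes tested.

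WT microglia replicate 3 was the lowest of the 6 microglia libraries in Apoe, Apod, Abca1 and Lrp1 and the highest in Lpl and Apoa2. A list of 10 markers of border macrophages, the CD11b+ cells of meninges and vessels, summed to 681, 445 and 234 FPKM in WT microglia and to 355, 317 and 336 FPKM in KO microglia. In WT the Apoe and Abca1 values followed the same order of libraries as that sum. In KO they did not: the sum was lowest in replicate 2, and Apoe and Abca1 were lowest in replicate 3. The part of these cells in the values was not tested. Apod was highest in KO microglia replicate 2, where the sum of myelin markers was highest too, at 2678 FPKM. Without WT microglia replicate 3 the Apoe difference turned to -0.26, and it still did not pass.

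**Figure D3:**
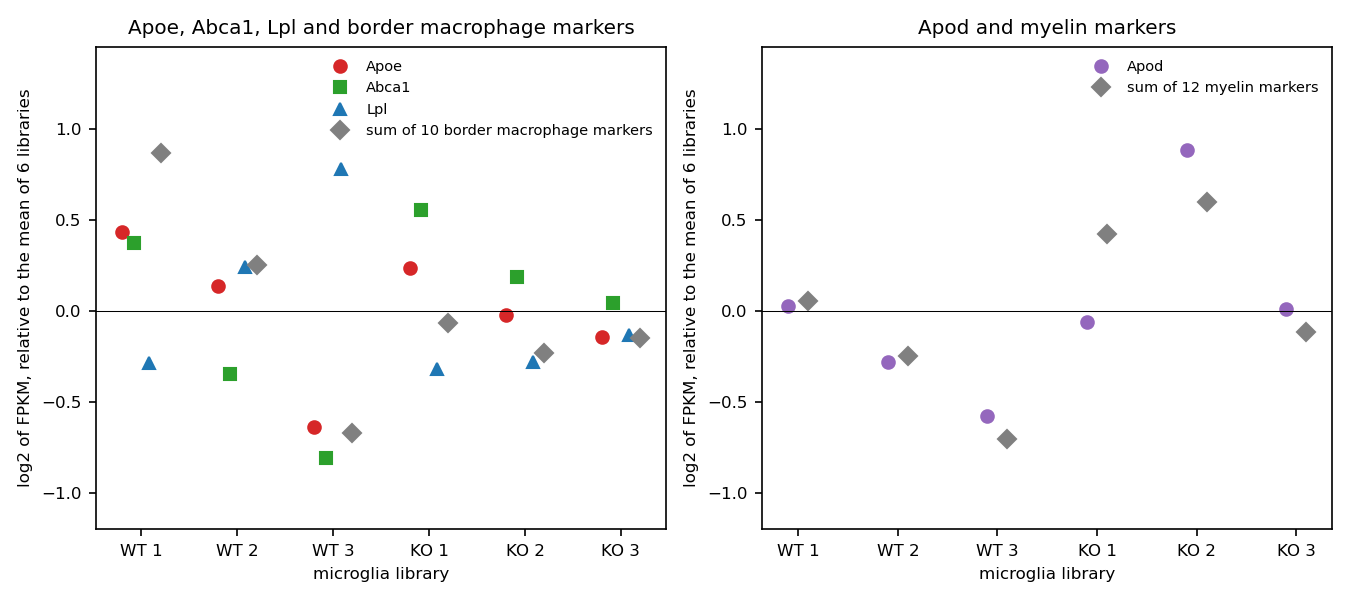
Left, FPKM of Apoe, Abca1 and Lpl and the summed FPKM of 10 border macrophage markers in the 6 microglia libraries, as log2 relative to each series' mean over the 6. Right, the same for Apod and the sum of 12 myelin markers. WT replicate 3 is lowest in Apoe, Abca1, Apod and both marker sums and highest in Lpl.

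Other measures differed between the microglia groups beside these genes. Xist, the RNA that coats the inactive X chromosome of female cells, was at 268, 283 and 0.713 FPKM in WT microglia and did not exceed 0.376 FPKM in KO microglia, and the low WT library is again replicate 3. With Xist as a covariate, the WT libraries high in Xist were set apart by it. The genotype difference in that fit (limma) thus rested mainly on WT replicate 3 against the KO libraries. It came to 0.72 for Apoe, 1.10 for Abca1, -1.03 for Lpl, 0.87 for Lrp1, 0.87 for Apod and -2.67 for Apoa2. These differences are larger than without the covariate. They depend mainly on that single WT library and cannot be read as genotype differences adjusted for Xist. Immediate-early genes summed to 2026 to 2711 FPKM in WT and to 1302 to 1590 FPKM in KO. Neutrophil markers summed to 136 to 266 FPKM in WT and to 59.9 to 122 FPKM in KO. The part of these in the microglial values was not tested.

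In astrocytes, where Il33 itself is made, 0 of 9 genes passed (limma, 4 KO against 3 WT, age as a covariate), against 0.0224% of 13397 genes tested. Apoe was at 8161 ± 792 FPKM in KO (SD, n = 4) and at 8485 ± 215 FPKM in WT (SD, n = 3), with a log2 difference of -0.07 and a 95% interval of -0.40 to 0.27. Clu was at 527 ± 113 FPKM in KO and 467 ± 20.6 FPKM in WT (log2 difference 0.12, 95% interval -0.29 to 0.54). For these abundant apolipoproteins a change by 1 log2 unit lay outside the interval. Vldlr was at 4.19 ± 2.04 FPKM in KO and 8.12 ± 4.49 FPKM in WT (log2 difference -0.78, 95% interval -1.90 to 0.34, adjusted p = 0.921). WT replicate 2 alone was above all KO libraries. Vldlr lies on chromosome 19, as does the targeted gene Il33 (29925114 to 29960718), and the part of linkage to the targeted locus was not tested. The median difference of the 9 genes was 0.01, against 0.00 over all genes.

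Apoa2 was the gene of the 9 whose KO and WT astrocytes did not overlap, where 4.68% of all genes tested had groups without overlap. Its log2 difference of 2.15 (SE 0.37) had an unadjusted p of 0.000686 and an adjusted p of 0.919 (limma, Benjamini-Hochberg), so that it did not pass. All 4 KO libraries were above the zeros. No fold is given, and the difference and the absence of overlap rest on zeros that may be failed estimates. The part of depth in the listed zeros was not tested. Of all genes 37 were at 0 in all WT and above 0 in all KO astrocyte libraries, and 24 showed the reverse. Of the 37, 2 were protein-coding genes with a mean of at least 1 FPKM, Apoa2 and Slc27a3, the second named after its values were seen.

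**Figure D4:**
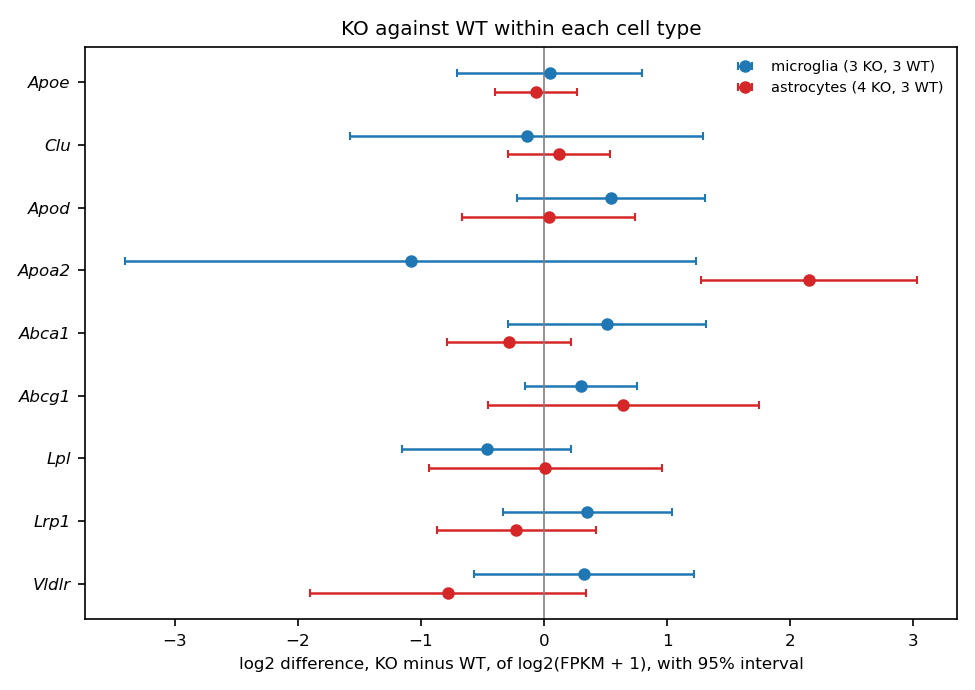
Difference between KO and WT for the 9 genes, in log2(FPKM + 1) (horizontal axis; right, higher in KO), with 95% intervals not adjusted for the number of genes, in microglia (blue) and astrocytes (red). All microglial intervals include 0, and Apoa2 in astrocytes, at 2.15, is the interval that does not.

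The difference of the genotype effect between the cell types was tested as an interaction over all 13 libraries. It passed for 0 of 9 genes, against 0.141% of 16258 genes tested, with 1 gene at an unadjusted p under 0.05 (limma). That gene was Apoa2, at -3.23 on the log2 scale (SE 1.00, adjusted p = 0.599), a value that rests on the same zeros. Without WT microglia replicate 2, its lowest WT microglia library, Apoa2 passed at -4.19 (adjusted p = 0.0404). The adjusted p of Abca1 was 0.783 and that of Vldlr 0.785, at 0.79 and 1.10.

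The authors' deposited table of genes that differed between KO and WT microglia lists 483 genes, and the authors' deposited table for astrocytes lists 10. The limma tests here called 13 in microglia and 3 in astrocytes. None of the 9 genes is in the authors' deposited tables. With 483 and 10 genes listed, where the FPKM cover 39171, that absence says little about the 9.

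Genes of the same trade outside the 9 were taken from 5 lists of 90 genes. With WT cell types compared, 18 of the 65 tested were higher in microglia and 21 lower (limma, Benjamini-Hochberg), where 29.1% and 24.5% of all genes were. In KO 19 were higher and 20 lower, where 31.9% and 25.1% of all genes were. Of these, 37 passed in both genotypes with the same sign, which is 94.9% of each, against 87.1% and 82.1% over all genes. Of the other apolipoproteins 2 of 15 were tested and Apoc1, which lies beside Apoe on chromosome 7 (19689481 to 19692660), was lower in microglia. Apoc1 was at 387, 610.1 and 414 FPKM in WT astrocytes and at 52.6, 32.6 and 29.3 FPKM in WT microglia (log2 difference -3.66, adjusted p = 5.56e-06). All astrocyte libraries were above all microglia libraries.

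Of the other exporters 2 of 10 were higher in WT microglia and 4 lower. Abca9, a transporter of the same family as Abca1, was at 67.5 to 86.3 FPKM in WT microglia and at most 0.243 FPKM in WT astrocytes (log2 difference 5.99, adjusted p = 5.08e-09). Abca2, a transporter abundant in oligodendrocytes, was at 119 to 217 FPKM in WT astrocytes and 11.9 to 27.4 FPKM in WT microglia (-2.82, adjusted p = 0.000112). Abcg4 (-2.33) and Abca5 (-2.12) were also lower in microglia.

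Of the other receptors and their adaptors 9 of 21 were higher in WT microglia and 7 lower. Trem2, a microglial receptor that binds lipids and lipoproteins including Apoe, was at 238 to 360.0 FPKM in WT microglia and at most 7.22 FPKM in WT astrocytes (log2 difference 6.02, adjusted p = 0.000218). The scavenger receptors Msr1 (3.16) and Cd36 (2.89) were higher in microglia too. On the astrocyte side stood the Vldlr ligand Reln (-5.16), the sorting receptor Sorl1 (-4.52) and Lrp4 (-3.78). In KO Mylip, a ubiquitin ligase that degrades low density lipoprotein receptors, was among the 3 largest, higher in microglia by 3.36.

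Of the lipases and remodelling genes 2 of 11 were higher in WT microglia and 2 lower. Lcat, the enzyme that esterifies cholesterol on lipoproteins, was at 123 to 208 FPKM in WT astrocytes and 0.913 to 6.13 FPKM in WT microglia (log2 difference -5.74, adjusted p = 3.99e-06). Lipa, the lysosomal acid lipase, was higher in microglia by 1.49 (adjusted p = 0.000264) and Lipe by 1.18, while Mgll was lower, at -1.14.

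Of the sterol, droplet and nuclear receptor genes 5 of 21 were higher in WT microglia and 7 lower. Nr1h2, which encodes liver X receptor beta, was at 21.3 to 22.3 FPKM in WT microglia and 2.68 to 9.25 FPKM in WT astrocytes (log2 difference 1.90, adjusted p = 0.000592). Its partner Rxrb (1.96) and the sterol hydroxylase Cyp27a1 (1.58) were higher in microglia as well. The fatty acid binding proteins Fabp7 (-7.12) and Fabp5 (-5.77) and the lipogenic factor Srebf1 (-3.44) were lower in microglia. Lipe, Mgll, Reln, Sorl1 and Srebf1 share exonic bases with another gene in the annotation, and since strand is not stated their values are uncertain.

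**Figure D5:**
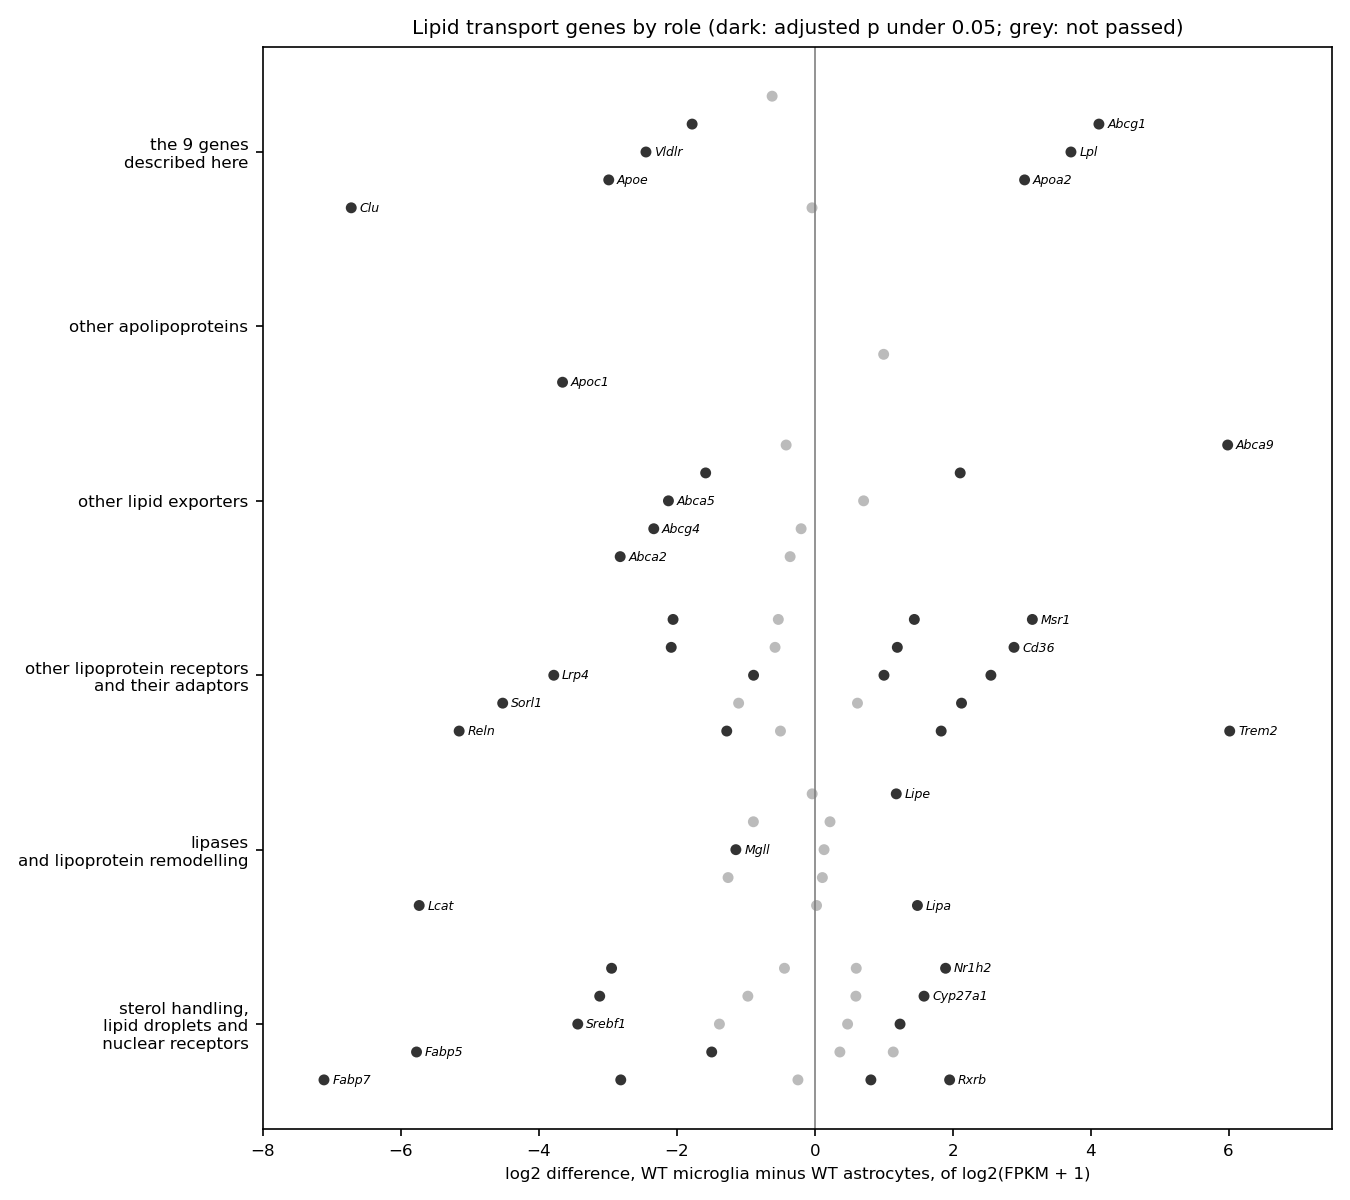
Difference between WT microglia and WT astrocytes, in log2(FPKM + 1) (horizontal axis; right, higher in microglia), for the 9 genes and for the tested genes of 5 related lists, 1 point a gene and spread vertically for legibility only. Dark points passed at an adjusted p under 0.05, and named points reach from Fabp7 at -7.12 to Trem2 at 6.02.

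With genotype, 0 of 64 tested genes of these lists passed in microglia, with 10 at an unadjusted p under 0.05, where 7.96% of all genes were, and a median difference of 0.20 (limma). The smallest p was that of Sort1, a sorting receptor, at 51.7, 54.4 and 50.8 FPKM in KO microglia and 39.1, 35.0 and 32.6 FPKM in WT microglia (log2 difference 0.55, adjusted p = 0.533). Osbpl1a, an oxysterol binding protein, was next (0.62, adjusted p = 0.549). Both shared exonic bases with another gene. The authors' deposited table for microglia lists 1 gene of the lists, Abca2. Its mean normalised count there is 1163 for WT and 2181 for KO, with an adjusted p of 0.0208. In FPKM, Abca2 was at 39.5 to 44.4 in KO microglia and at 11.9 to 27.4 in WT microglia, without overlap. It was among the genes that did not pass in limma here. The sum of myelin markers also had a higher mean in KO microglia, at 2224 FPKM against 1467 FPKM in WT. The ranges of that sum overlapped, and the part of myelinating cells in the Abca2 difference was not tested.

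In astrocytes 0 of 65 passed, with 1 at an unadjusted p under 0.05, where 4.19% of all genes were. That gene was Lmf1, a factor for the maturation of Lpl, at 80.1, 55.2, 55.6 and 41.5 FPKM in KO astrocytes and 34.6, 29.0 and 19.6 FPKM in WT astrocytes (log2 difference 1.01, adjusted p = 0.921, limma). All KO libraries were above all WT libraries. Abcg2 was next, at -1.39 (adjusted p = 0.921). The interaction passed for 0 of 65, with 4 at an unadjusted p under 0.05 (6.62% of all genes were), among them Osbpl1a and Lrp6.

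The genes whose profiles over the 13 libraries lay closest to each of the 9 were sought among 16249 genes by the root mean square difference of centred log2(FPKM + 1). Closest to Apoe were Sptbn1 (0.166) and Kif1c (0.178), and closest to Clu was Ntsr2 (0.269). Lpl was nearest to Ccdc88b (0.209) and Gm11851 (0.229), and Abcg1 to Mknk1 (0.271) and Bcl2l11 (0.287). Lrp1 was nearest to Dync2h1 (0.158) and Tbck (0.217), Abca1 to Ncoa2 and Trpc4ap (0.246 each), Apod to Cacnb4 and Tmeff2 (0.266 each) and Vldlr to Pex13 (0.299) and Gpr63 (0.302). Apoa2 had the most distant neighbours, Gm15280 (0.684) and Tmem191c (0.740). The points share their libraries and, for most genes, the difference between the cell types, and the likeness is a description.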

How the data were processed

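Total RNA of sorted cells was extracted with TRIZOL, DNase-treated, purified on columns and made into libraries with NuGEN RNA-Seq V2, per the labels' protocols. The tools named with build GRCm38 are FastQC, Cufflinks, Cuffnorm, TopHat2 2.0.11, DESeq2, Bowtie2 2.2.3 and HTSeq 0.6.1p1, according to the submitters' processing notes. For settings, annotation and strand the sources used here give nothing. The authors deposited FPKM of 39171 genes, scaled between libraries in a way not stated. Per the file headers, the authors' deposited tables also hold a mean normalised signal per genotype, log2 fold changes, a score (standard error and Wald statistic), p-values and adjusted p-values.

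Identifiers were matched to GENCODE mouse release 21 (37605, 96.0%). limma 3.58.1 in R 4.3.3 (trend, two-sided) was run on log2(FPKM + 1) of genes with a mean of at least 1 FPKM over the fitted libraries, the 9 genes and Il33 kept in any case. One gene, Vldlr in microglia, was under that mean. This scale understates how far low genes differ. Microglia and astrocytes were fitted apart for genotype (age as a covariate in astrocytes), and all 13 libraries together for cell type and interaction. A call was an adjusted p (Benjamini-Hochberg, all genes) under 0.05. The procedure was also run on simulated data in which a limited set of genes was given large differences. That run cannot say how small differences or listed zeros fare. Where labels do not say that replicates are separate animals, p-values measure the spread between these samples only. Relative depth is the densest ratio of values under 0.3 FPKM between 2 libraries, in bins of 0.05 on the log2 scale.

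The 9 genes, the lists and the tests were chosen with earlier results of these data known. Related genes were named when called, at most the 3 largest per direction and list, or otherwise the 2 with the smallest p. Profile neighbours were the 2 closest genes of each of the 9. A few genes that these rules name are not reported here.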

Additional observations from a re-analysis of the deposited data

How the results depend on the processing

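Of 648 values of the 9 genes under alternatives, 609 kept their direction and side of the threshold, 11 no longer passed, 4 newly passed and 24 changed sign, with none of the sign changes among calls. Deviations from the group means were not alike between same-numbered libraries (correlations -0.08 to 0.03). That cannot decide whether same-numbered samples share an animal, a litter or a day of sorting. With the replicate number as a block, calls over all genes went from 13 to 3 in KO against WT microglia, from 3 to 0 in astrocytes and from 23 to 14 for the interaction, Apod in astrocytes turned to -0.0064 and Abca1 between WT cell types to 0.0036, and Abca1 between KO cell types no longer passed (adjusted p = 0.0923).

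For microglia by genotype the 13 calls became 25 with a pseudocount of 0.1, 7 without the filter, 37 in the fit of all 13 libraries and 258 with Xist as a covariate (where Clu turned to 0.51), and 18 to 48 with a library left out. For astrocytes the 3 calls became 5 with a pseudocount of 0.1, 0 without the filter, 7 in the fit of all 13 libraries, 0 with day 12 libraries only and 0 to 8 with a library left out. Under quantile normalization Apoe in astrocytes turned to 0.19 and Lpl to -0.13. The 23 calls of the interaction became 37 without the filter, 13 with a minimum mean of 5 FPKM and 15 to 75 with a library left out, and the calls among the 9 genes 0 to 1.

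With a library left out, these differences changed sign within their range. By genotype in microglia Apoe ranged from -0.26 to 0.27 and Clu from -0.49 to 0.51. In astrocytes Apod ranged from -0.28 to 0.24, Lpl from -0.092 to 0.10 and Lrp1 from -0.52 to 0.023. Between WT cell types Abca1 ranged from -0.35 to 0.23. Between KO cell types Apoa2 ranged from -0.73 to 0.10 and Lrp1 from -0.18 to 0.13. In the interaction Abcg1 ranged from -0.59 to 0.061, Apoe from -0.19 to 0.34 and Clu from -0.61 to 0.39.

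The cause was not tested for any of these, except that leaving out libraries and fitting fewer genes change the samples and the adjustment by construction. Astrocyte libraries were the shallower ones by the estimate from low values, which a difference in scaling would move as well. Lower depth, if real, would limit low values there.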
